A study of Mus musculus with 4 samples.

Results

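Cyp2b10, 4 of its Cyp2b paralogs, the xenobiotic receptors Nr1i3 and Nr1i2 and the genes Por, Alas1 and Ugt3a2 were followed in brown adipose tissue of mice with and without Tsku. The 10 genes were chosen by symbol, with the difference between knockout and wild type on these arrays already known, so their values are given as a description and no test of that difference is made for them. Of the 10, 9 had a listed probe set naming that gene alone, among 22180 genes in all, and each of the 9 had 1 probe set. Por, which passes electrons to microsomal P450 enzymes, had none and was not analysed here.

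The samples were brown fat (BAT) from 4-month-old male C57BL/6 mice fed chow, 2 samples labelled KO, for Tsku knockout, and 2 labelled WT, for wild type, each on 1 whole-transcript array. Tsku encodes tsukushi, a secreted small leucine-rich proteoglycan. The labels do not give the allele or how it was made, and Tsku itself had no listed probe set, so the genotypes rest on the labels. The samples are called biological replicates with no word on separate animals, so any p-value here measures the spread of these 4 samples alone, and that spread may be technical.

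The Cyp2b genes encode cytochrome P450 enzymes, haem proteins of the endoplasmic reticulum that oxidise drugs, steroids and fatty acids. In liver, the constitutive androstane receptor CAR (Nr1i3) and the pregnane X receptor PXR (Nr1i2) bind DNA as heterodimers with retinoid X receptors and induce such genes after exposure to foreign compounds. Cyp2b10 is the classical target of CAR in mouse liver. Brown fat, which burns fuel to make heat, is not a tissue for which this pathway is best known.

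The Cyp2b genes lie in 1 cluster on mouse chromosome 7, and the sequences before their starts show how close the paralogs are to each other where a transcript begins. RefSeq start sequences (GRCm38.p6) were found for 9 of the 10 members, all but Ugt3a2. The 120 bases before the annotated start are shown for the 5 Cyp2b genes. They lie at chr7:25897538-25897657 (plus strand) for Cyp2b10, chr7:26686431-26686550 (minus strand) for Cyp2b23 and chr7:26757022-26757141 (plus strand) for Cyp2b19. Those of Cyp2b9 and Cyp2b13 lie at chr7:26173289-26173408 and chr7:26061375-26061494, both on the plus strand. Capitals mark the word TTGCATAA, which resembles sites of the C/EBP factors, or the word TTGTATAA found at the corresponding place, and the second word was picked after the sequences were seen.
Cyp2b10: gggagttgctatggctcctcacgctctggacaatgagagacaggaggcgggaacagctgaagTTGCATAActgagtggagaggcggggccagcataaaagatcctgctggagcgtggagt
Cyp2b23: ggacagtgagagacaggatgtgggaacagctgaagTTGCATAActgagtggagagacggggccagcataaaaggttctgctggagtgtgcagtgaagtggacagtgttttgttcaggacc
Cyp2b19: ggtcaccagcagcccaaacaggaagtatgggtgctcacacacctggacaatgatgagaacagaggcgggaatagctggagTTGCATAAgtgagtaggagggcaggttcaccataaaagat
Cyp2b9: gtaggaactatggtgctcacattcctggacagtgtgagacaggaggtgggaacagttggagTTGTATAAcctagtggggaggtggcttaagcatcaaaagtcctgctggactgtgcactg
Cyp2b13: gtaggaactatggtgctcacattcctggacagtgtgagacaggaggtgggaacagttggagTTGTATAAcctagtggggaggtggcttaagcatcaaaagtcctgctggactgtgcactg

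In the 250 bases before the start, Cyp2b10 shared 183 of 209 aligned bases with Cyp2b23 (87.6%) and 185 of 219 with Cyp2b19 (84.5%). With each of Cyp2b9 and Cyp2b13 it shared 186 of 238 (78.2%). Gaps and unaligned ends are left out of these percentages, so they do not rank the paralogs over all 250 bases. Cyp2b9 and Cyp2b13 were 99.2% identical to each other. TTGCATAA was found in 3 of the 5 windows of 120 bases and in 0.35% of 32851 such windows of mouse genes, both strands searched. TTGTATAA was in the other 2, and in 0.183% of all windows. CATAAAA, which resembles the AT-rich box of some core promoters, was in 3 of the 5 and in 1.78% of all. GGCGGG, which the factor SP1 can bind, was in 2 of the 5 and in 25.8% of all. AGGTCA, the half-site of many nuclear receptors, was in none of the 5 windows and in 6.91% of all, and none of these words overlapped another where they occurred here. The 5 windows are related sequences and not independent, so nothing is read from their counts beside the shares of all windows. A match says only that the letters are there, and the distal elements known to bind CAR lie outside such a window.

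Cyp2b10 read 4.55 and 4.22 on the knockout arrays, against 0.87 and 0.62 on the wild-type arrays, in deposited log2 units. The knockout arrays lay far above the wild-type arrays and close to each other. Olfactory receptor (Olfr) genes, with 1108 probe sets, set the background: it was the 95th percentile of their values on an array and lay between 0.62 and 0.81. These genes are assumed to be largely silent in brown fat, which was not tested. Both knockout values were above the values of 100% of the Olfr probe sets. The wild-type values were above 97.8% of them in replicate 1, which passed the background, and above 92.6% in replicate 2, which did not. The means were 4.39 ± 0.23 in the knockout and 0.74 ± 0.18 in wild type (SD, n = 2 each). Their difference of 3.65 (SE 0.21) on the log2 scale is a 12.5-fold higher level in the knockout, or 11.9-fold when a wild-type value under the background is raised to it. The 4 possible differences between a knockout and a wild-type array ran from 3.36 to 3.93, and this was the highest difference of all 22180 genes, which is what drew attention to it. The SE given here and below is from limma, which draws the variance of a gene towards that of all genes. It is thus not the spread of that gene's own arrays alone. In bulk tissue, more cells that use a gene and more RNA per cell cannot be told apart.

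Among the paralogs the differences ran from -0.09 to 0.62, and none of the 4 was above background on all arrays. Cyp2b9, a form prominent in female mouse liver, read 1.20 and 0.97 in Tsku knockout tissue, against 1.08 and 0.53 in wild-type tissue. Its genotypes overlapped, and 3 of its 4 values were above background. Cyp2b13, also known from female liver, read 0.14 and 0.20 in Tsku knockout tissue, against 0.31 and 0.22 in wild-type tissue, all below background. Cyp2b19, an epoxygenase of skin keratinocytes, read 0.05 and 0.11 in Tsku knockout tissue, against -0.08 and 0.02 in wild-type tissue. These values were below background too, in the middle of the Olfr probe sets.

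Cyp2b23, a further paralog, read 0.66 and 0.45 in Tsku knockout tissue, against -0.02 and -0.11 in wild-type tissue. Its knockout arrays were both higher, with a difference of 0.62 (SE 0.19) on the log2 scale. All 4 values were below background, so no fold is given. The knockout values lay above 92.9% and 89.98% of the Olfr probe sets and the wild-type values above 52.9% and 31.0%. Whether RNA of a paralog can bind these probes was not tested, because probe sequences were not used here.

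**Figure D1:**
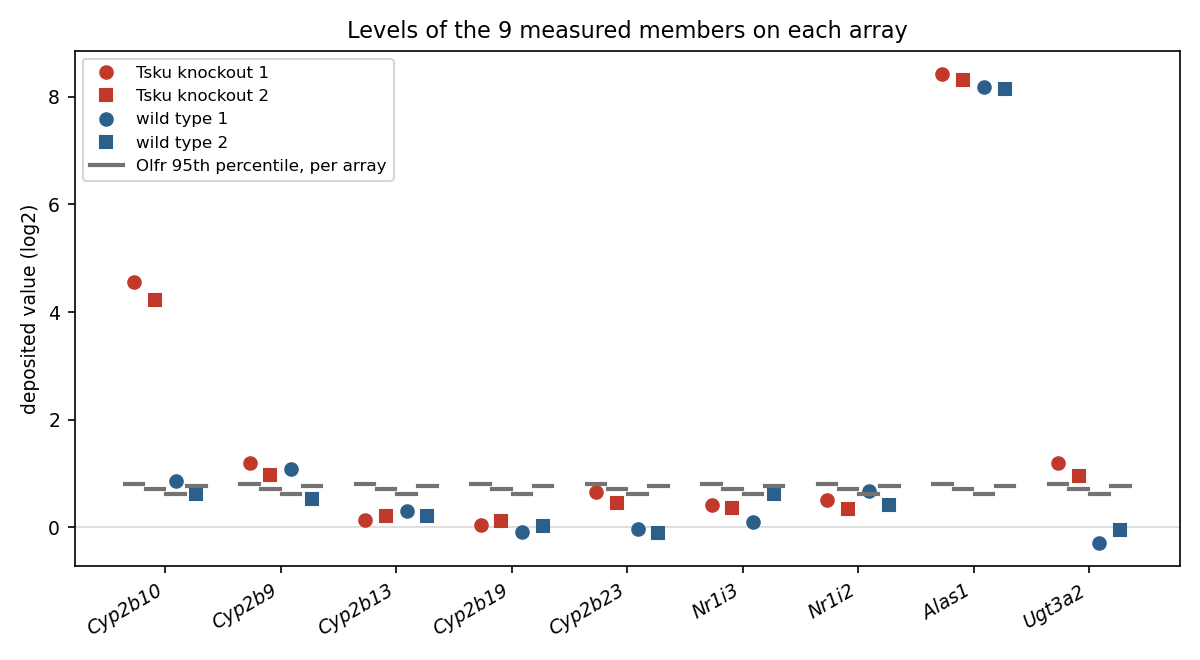
Deposited log2 value (vertical axis) of each of the 9 measured genes (horizontal axis) on the 2 Tsku knockout arrays (red) and the 2 wild-type arrays (blue), with a grey dash for each array's Olfr background. Cyp2b10 sits at 4.55 and 4.22 in Tsku knockout tissue, against 0.87 and 0.62 in wild-type tissue. Alas1 is above background on all 4 arrays, and the other genes sit near or below it.

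The receptors themselves were at the level of the background. Nr1i3, which encodes CAR, read 0.41 and 0.36 in Tsku knockout tissue, against 0.10 and 0.63 in wild-type tissue. All 4 values were below background and both knockout values lay between the wild-type ones. Nr1i2, which encodes PXR, read 0.50 and 0.33 in Tsku knockout tissue, against 0.67 and 0.41 in wild-type tissue, with 1 wild-type array above background. The genotypes overlapped for both receptors, with log2 differences of 0.03 (SE 0.24) for Nr1i3 and -0.13 (SE 0.20) for Nr1i2. For Nr1i3 the difference was -0.24 with the first wild-type array left out and 0.29 with the second left out. For Nr1i2 it was 0.0068 and -0.26 in the same order. For a gene at background, neither absence nor equal levels can be read from these arrays.

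Alas1, the first and rate-limiting enzyme of haem synthesis outside red cells, supplies the haem that P450 enzymes carry. It read 8.42 and 8.31 in Tsku knockout tissue, against 8.19 and 8.14 in wild-type tissue, and was the 1 member above background on every array. Both knockout arrays were higher, by 0.20 (SE 0.18) on the log2 scale or 1.15-fold. The SDs of its own arrays were 0.08 in the knockout and 0.04 in wild type.

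Ugt3a2, a UDP glycosyltransferase that attaches sugars to small molecules, read 1.19 and 0.96 in Tsku knockout tissue, against -0.29 and -0.04 in wild-type tissue. Both knockout values were above background and both wild-type values below it, so the fold is a bound, at least 1.30-fold higher in the knockout. That bound is the mean of the knockout values over the mean of the background of the wild-type arrays. Like every bound given here, it depends on the percentile chosen. Neither knockout value of Ugt3a2 was above the 99th percentile of the Olfr probe sets. The measured log2 difference was 1.24 (SE 0.20), the 33rd highest of all genes. Ugt3a1, its nearest relative, read 0.46 and 0.27 in Tsku knockout tissue, against -0.27 and -0.27 in wild-type tissue, all below background.

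Of the 9 measured members, both knockout arrays were above both wild-type arrays in 5 and below them in 1, while the arrays overlapped in 3. Over all 22180 genes the shares were 19.4% above and 15.8% below. The members were chosen with this comparison known, so the shares are printed beside their count and nothing is read from it. With limma and Benjamini-Hochberg adjustment over all genes, 0 of 22180 genes (0%) had an adjusted p under 0.05. Before adjustment, p was under 0.05 for 642 genes with higher values (2.89%) and 592 with lower values (2.67%) in the knockout. With the first wild-type array left out, 15 genes passed the adjusted threshold, and with the second left out, 2 did. In such a fit the spread within genotypes comes from the 2 knockout arrays alone, and the lone wild-type array is assumed to vary like them.

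**Figure D2:**
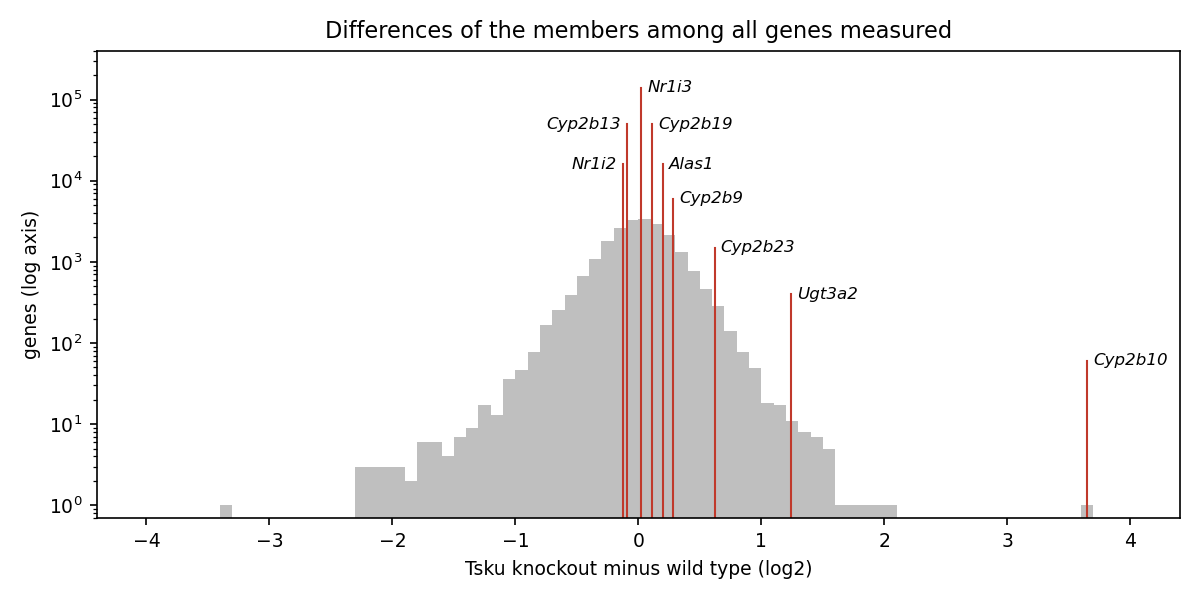
Number of genes (vertical log axis) by Tsku knockout minus wild type difference (horizontal axis, log2), with a red line at each of the 9 measured members. Line heights carry no value. Cyp2b10 stands at 3.65 and Ugt3a2 at 1.24, and the other members lie between -0.13 and 0.62.

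The wider program of the receptors was followed in 50 genes that CAR or PXR are known to induce in mouse liver, of which 43 were measured and 21 lay below background on all arrays. The list, like the others here, was made with earlier results of these arrays known. Of the 43, 25 had higher and 18 lower values in the knockout, with a median log2 difference of 0.03, against 0.02 over all genes. That median was -0.0017 with quantile normalization repeated and -0.016 among genes above the median level. None passed the adjusted threshold. At an unadjusted p under 0.05 there were 5 higher and 1 lower, beside 2.89% and 2.67% of all genes.

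Cyp2c55, a hydroxylase of fatty acids known from mouse colon and liver, read 2.35 and 0.97 in Tsku knockout tissue, against 0.32 and 0.60 in wild-type tissue, below background. By the knockout mean the level was at least 1.94-fold higher, but knockout replicate 1 alone was 3.14-fold and knockout replicate 2 alone 1.20-fold above the mean wild-type background. Its log2 difference was 1.20 (SE 0.45, limma adjusted p = 0.872), or 0.74 with the mean of its 2 probe sets. Cyp2c54, another P450, read 0.95 and 1.12 in Tsku knockout tissue, against 0.12 and 0.48 in wild-type tissue, at least 1.27-fold higher. The sulfotransferase genes Sult1d1 and Sult5a1 were at least 1.13-fold and 1.05-fold higher, with 1 of 2 knockout arrays above background for each. Both had the knockout arrays above the wild-type arrays. The knockout values of Cyp2c54, Sult1d1 and Sult5a1 were all below the 99th percentile of the Olfr probe sets, so these bounds rest on the 95th.

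The 2 remaining genes at that unadjusted level are named after their values were seen. Gstm1, a glutathione transferase, read 3.96 and 4.36 in Tsku knockout tissue, against 3.77 and 3.23 in wild-type tissue. Gstt1, of another class of that family, read 4.08 and 4.16 in Tsku knockout tissue, against 4.59 and 4.53 in wild-type tissue, and was the lower one. Both genes were above background on all 4 arrays, and neither had overlapping genotypes.

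Partners and regulators of the receptors were measured in 21 of 24 genes, 13 with higher and 8 with lower knockout values. Their median log2 difference was 0.06, and it turned to -0.019 without wild-type replicate 2. None passed the adjusted threshold, and 1 was higher and 1 lower at an unadjusted p under 0.05, beside 2.89% and 2.67% of all genes. Rxrg, the retinoid X receptor gamma gene, read 1.68 and 2.15 in Tsku knockout tissue, against 0.86 and 1.17 in wild-type tissue. Its log2 difference was 0.90 (SE 0.24), with no overlap. Hnf4a, a nuclear receptor of liver and gut epithelium, read 0.46 and 0.97 in Tsku knockout tissue, against 1.33 and 1.50 in wild-type tissue, with 1 knockout array below background and a log2 difference of -0.70 (SE 0.24). Rxrb differed by 0.52 (SE 0.29) with overlapping arrays. Nr3c1, the glucocorticoid receptor gene, differed by -0.31 (SE 0.19) without overlap.

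Electron partners of P450 enzymes and genes of haem synthesis, transport and breakdown gave clear signals. Of 24 listed genes 21 were measured, and all 21 were above background on every array. In the knockout, 15 of them had higher and 6 lower values, with a median log2 difference of 0.13, against 0.02 over all genes. None passed the adjusted threshold, and 2 were higher and 0 lower at an unadjusted p under 0.05, where all genes gave 2.89% and 2.67%. Abcb10, a mitochondrial inner membrane transporter needed for haem synthesis, read 4.75 and 4.79 in Tsku knockout tissue, against 3.76 and 4.13 in wild-type tissue. Its log2 difference was 0.82 (SE 0.21).

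Abcb6, a porphyrin transporter, read 4.05 and 3.87 in Tsku knockout tissue, against 3.53 and 2.99 in wild-type tissue, a log2 difference of 0.70 (SE 0.24). Flvcr1, which exports haem and imports choline, read 4.46 and 5.19 in Tsku knockout tissue, against 5.39 and 5.60 in wild-type tissue. Cyb5b, the cytochrome b5 of the outer mitochondrial membrane, differed by 0.46 (SE 0.20). Neither these 3 genes nor Abcb10 had overlapping genotypes.

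In the cluster that holds the Cyp2b genes, 13 protein-coding Cyp2 genes run from Cyp2s1 to Cyp2t4, and all were measured. The 8 that are not members had log2 differences from 0.024 to 0.74, and 2 of the 8 had both knockout arrays above both wild-type arrays, beside 19.4% of all genes. Cyp2f2, an enzyme of lung club cells and liver, was the 1 above background on all arrays and read 4.03 and 4.29 in Tsku knockout tissue, against 3.21 and 3.62 in wild-type tissue. Its log2 difference was 0.74 (SE 0.23), or 0.39 with the mean of its 2 probe sets. Cyp2s1, which borders Cyp2b10 in that order on the side away from Cyp2b13, differed by 0.07 and lay below background.

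Over all 93 other P450 genes measured, 56 had higher and 37 lower values in the knockout, with a median log2 difference of 0.07, and 54 were below background on every array. None passed the adjusted threshold, and 7 were higher and 4 lower at an unadjusted p under 0.05, against 2.89% and 2.67% over all genes. Cyp4x1, a P450 best known from brain, read 0.05 and 0.12 in Tsku knockout tissue, against 0.70 and 0.76 in wild-type tissue, and 1 wild-type array was above background. Cyp4f15 differed by -0.57 below background on all arrays. Of 10 other UDP glycosyltransferase genes, none was above background on all arrays, and the median log2 difference was 0.10. Ugt8a, which makes galactosylceramide, was below background on both knockout arrays, and its wild-type level was at least 1.30-fold higher.

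**Figure D3:**
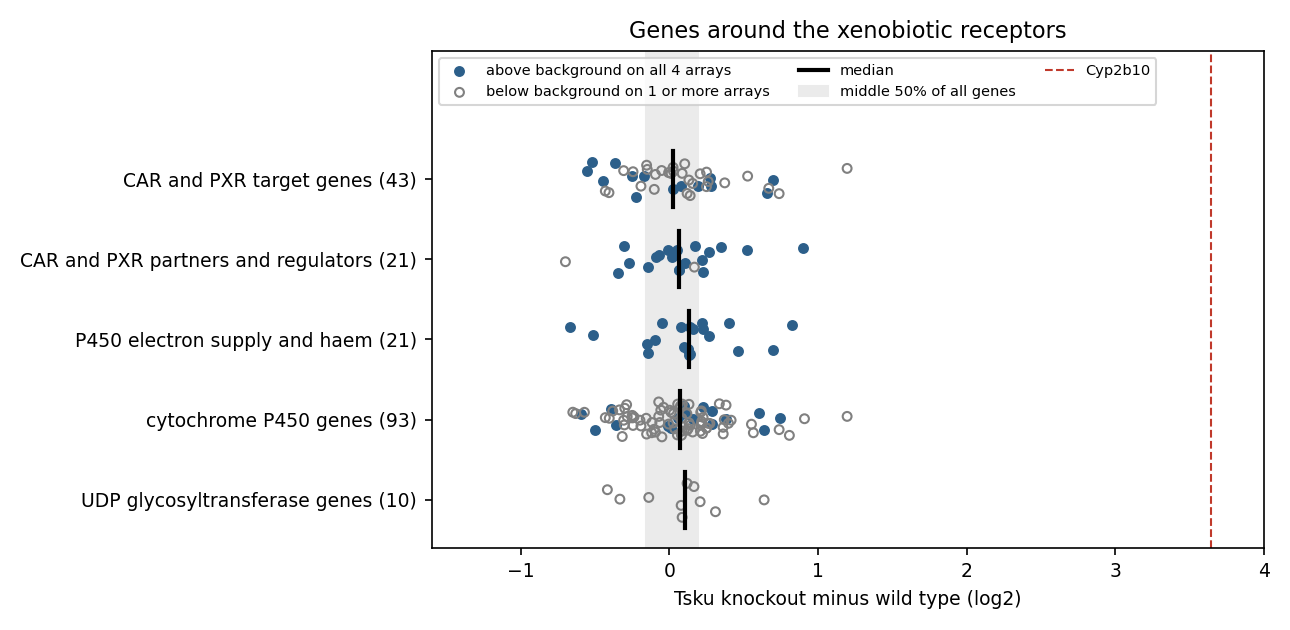
Tsku knockout minus wild type difference (horizontal axis, log2) for each gene of 5 groups, members left out, with the number measured in brackets. Filled points were above background on all 4 arrays, open points were not, black bars are medians and the grey band holds the middle 50% of all genes. The 5 medians lie between 0.03 and 0.13, and no gene of the groups reaches the dashed line at the Cyp2b10 value of 3.65.

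Markers of several cell types differed in level between the genotypes, none past the adjusted threshold with all 4 arrays. Of 20 hepatocyte markers, liver being the main site of Cyp2b10, all 20 had higher values in the knockout, and 9 of them without overlap, beside 19.4% of all genes. Their summed linear level was 109 and 59.3 on the knockout arrays, against 48.2 and 37.2 on the wild-type arrays. Alb, the albumin gene, read 5.77 and 4.41 in Tsku knockout tissue, against 3.68 and 2.87 in wild-type tissue, and both genotypes lay apart. Ttr, the transthyretin gene, read 2.88 and 1.83 on the knockout arrays, against 1.86 and 1.77 on the wild-type arrays, which overlap. The markers Kng1, Apoh, Fgg, Tdo2 and F2 were below background on all arrays, and 6 of the 20 were above it on all. Within the knockout, Alb differed by 1.36 between the arrays and Cyp2b10 by 0.33. The part of liver transcripts in the Cyp2b10 value was not tested.

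Of 15 brown adipocyte markers, 15 had higher values in the knockout, 10 of them without overlap, beside 19.4% of all genes. Their median log2 difference was 0.33, and 14 were above background on every array. Ucp1, the uncoupling protein gene, differed by 0.55 (SE 0.18) and Adipoq, the adiponectin gene, by 0.25 (SE 0.18), neither with overlap, and Dio2, a marker of this list, is described among the nearest profiles. All 15 skeletal muscle markers were lower, 12 of them without overlap, beside 15.8% of all genes. Their median was -1.82, with a summed linear level of 203 and 73.3 on the knockout arrays, against 319 and 498 on the wild-type arrays. Acta1, the skeletal actin gene, differed by -1.90 (SE 0.37). Ckm, the muscle creatine kinase gene, differed by -2.15 (SE 0.79), or -1.06 with the mean of its 2 probe sets. With the first wild-type array left out, the muscle markers Myot, Myh1 and Tnni2 passed the adjusted threshold. All 12 macrophage markers were lower, 6 of them without overlap, beside the same 15.8% of all genes. Their median was -0.53, with summed levels of 150 and 285 on the knockout arrays, against 269 and 284 on the wild-type arrays. Cd68, a lysosomal glycoprotein of macrophages, differed by -0.88 (SE 0.39). Markers of gut and skin epithelium, other sites of Cyp2b genes, had a median of -0.09, and 1 of the 7 measured was above background on all arrays. The part of these cell types in the members' values was not tested.

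The genes with the array profile most like that of Cyp2b10 were picked by distance, after centring each gene on its own mean over the 4 arrays. This ranks genes on the same contrast that chose Cyp2b10 and is a description of 4 arrays. The nearest was Dio2, whose enzyme turns thyroxine into the active thyroid hormone, at a distance of 1.70, where the median over all genes was 3.66. Dio2 read 4.30 and 4.71 in Tsku knockout tissue, against 2.63 and 2.32 in wild-type tissue. Tshr, the thyrotropin receptor gene, followed at 1.96 and Alb at 2.01. Fasn, the fatty acid synthase gene, stood at 2.05 and Mmd2, of the progestin and adipoQ receptor family, at 2.13. The log2 difference of Dio2 was 1.76 with the mean of its 2 probe sets, and 1 gene of a class left out of the ranking (predicted, small RNA or chemoreceptor genes) lay between Fasn and Mmd2. None of the 5 overlapped between genotypes, which follows from the way they were picked. Their log2 differences ran from 1.55 for Mmd2 to 2.03 for Dio2.

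**Figure D4:**
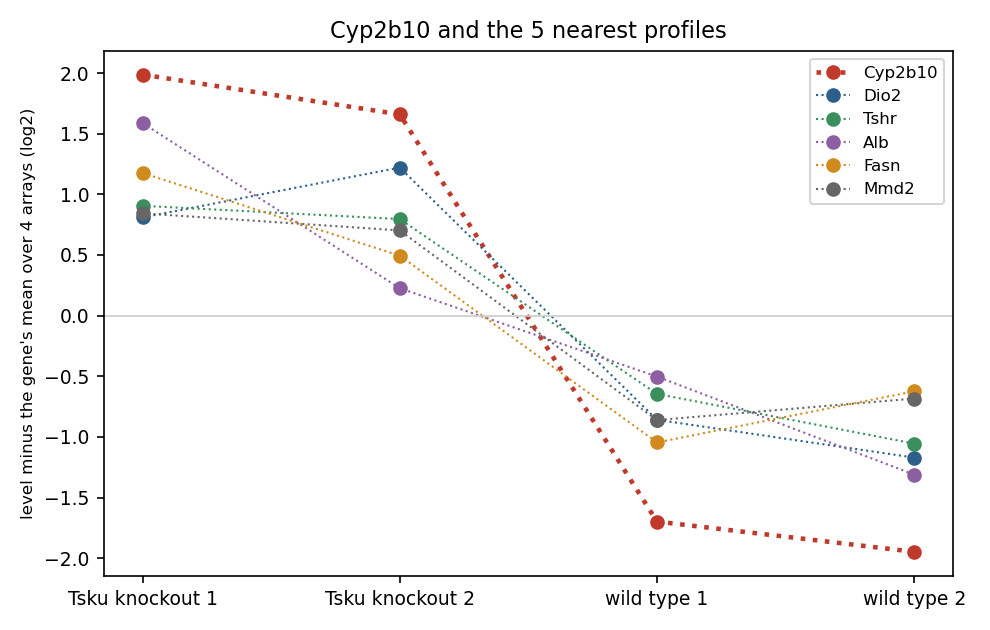
Level of Cyp2b10 and the 5 genes nearest to it by profile, each minus its own mean over the 4 arrays (vertical axis, log2), on the Tsku knockout and wild-type arrays (horizontal axis). Dotted lines join the values of a gene and stand for no order of the replicates. All 6 genes lie above 0 on both knockout arrays and below it on both wild-type arrays, and Alb falls furthest apart between the knockout arrays.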

How the data were processed

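Total RNA from brown fat was labelled with biotin and hybridised to whole-transcript arrays, per the labels' protocols. From these the authors deposited normalized log2 values of 41345 probe sets in a table with 4 columns. The submitters' processing notes name RMA, oligo and limma but give no role or version, and the genome build is not given in the sources used here. Base 2 is assumed for the logarithm, as is usual for RMA. The deposited log2 values lie low for RMA (array medians 0.56 to 0.58), for a reason not given in the sources used here, and what that does to differences was not tested.

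Probe sets with 1 symbol in the platform annotation (23521) were used, 1814 with several and 16010 with none were left out, and the brightest probe set was kept for each of 22180 genes. The 2 genotypes were compared with limma 3.58.1 (R 4.3.3), lmFit and eBayes, two-sided, with no block or filter. The fit had 2 residual degrees of freedom, and p-values were adjusted over all genes by Benjamini-Hochberg. Each SE comes from this fit, with the variance of a gene drawn towards that of all genes (prior degrees of freedom 3.96). The fit was tested on simulated data. The 4 arrays limit the precision. Start sequences were aligned with Biopython 1.88. Levels of different probe sets were compared for the brightest probe set, the Olfr background, the filters on dim genes and summed marker levels. They were not otherwise set against each other.

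The members and lists were chosen with earlier results of these data known. The text names all members, up to 4 genes of each pathway list or family with the smallest unadjusted p, the 5 nearest profiles and a few defining markers. Gstm1, Gstt1, Cyp2s1 and the hepatocyte markers below background were named after their values were seen. The alternatives were a replicate block, filters on dim genes, other probe sets, other normalizations, other prior variances, other background percentiles and each sample left out.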

Additional observations from a re-analysis of the deposited data

How the results depend on the processing

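The Cyp2b10 difference was 3.64 to 3.65 with other normalizations and 3.48 to 3.81 with single samples left out. The other alternatives could not move it. Cyp2b10 has 1 probe set, and a replicate block, a filter or another prior variance leaves the difference itself unchanged. The count of genes past an adjusted p of 0.05 was 0 in the reported fit. It was 1 with a replicate block, 1 when the prior variance followed the mean level, and 0 to 15 without single samples, where the spread within genotypes comes from 2 arrays of 1 genotype. The 15, without wild-type replicate 1, were 3 higher and 12 lower, and 3 of the 12 were on the skeletal muscle list. Replicate numbers were not shown to pair the samples (Pearson's r of deviations across genes -0.073). At an unadjusted limma p under 0.05, 713 of the 11090 genes above the median level passed, against 1234 of 22180 in the reported fit. Of the same 11090 genes, 4066 did not overlap between genotypes, against 7814 of 22180. The median difference of the CAR and PXR target genes was -0.016 among genes above the median level, where 8 were higher and 8 lower, and 0.013 to 0.081 without single samples. Without single samples the medians ran from -0.019 to 0.061 for partners and regulators, from 0.091 to 0.148 for electron supply and haem and from 0.022 to 0.108 for the other P450 and UDP glycosyltransferase genes. With the 90th percentile of Olfr probe sets as background, 3 members were above it on all arrays, against 1 with the 95th. The 90th percentile is a lower bar by definition. The cause of the other shifts was not tested. Of the 9 measured members, 1 was above background on all arrays, 4 on some and 4 on none, which limits what their differences can show.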
